A study of Homo sapiens with 12 samples.

Results

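The loci described here are places in the genome where bromodeoxyuridine (BrdU), a thymidine analogue built into newly made DNA, was mapped in IMR90 lung fibroblasts and in Saos-2 osteosarcoma cells but not in H1 embryonic stem cells. The BrdU regions of the H1 control, IMR90 and Saos-2 lists were pooled, regions that shared at least 1 bp were joined into loci, and loci with a region from IMR90 and from Saos-2 and none from the H1 control were kept. This gave 533 members among 13567 loci, or 3.93%. Loci of all 3 lines numbered 926, those of H1 and Saos-2 only 712, and those of H1 and IMR90 only 148. A further 4026 loci were found in IMR90 alone, 4059 in Saos-2 alone and 3163 in H1 alone.

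The study related DNA replication to epigenetic marks in 3 established cell lines, with 1 pulled-down library per group. IMR90 is a primary fibroblast line (passages 7 to 12) and Saos-2 an osteosarcoma line, and neither received an siRNA. The H1 control (passages 35 to 45) received a non-targeting siRNA and the H1 knockdown received siRNAs against EP300 and CREBBP. Both H1 cultures also had HA 1077 at 10 µM and were collected after 72 h. The mark H3K18ac was mapped by chromatin immunoprecipitation in IMR90 and in H1 without siRNA, and not in Saos-2. Cell line, siRNA treatment and culture medium cannot be told apart in any contrast of H1 BrdU with the other lines.

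A replicating cell copies its genome from many start sites, and chromosome domains are copied early or late in S phase in an order that depends partly on the cell type. BrdU taken up into nascent strands and pulled down with an antibody marks DNA made during the label. H3K18ac is an acetylation of the tail of histone H3 laid down largely by EP300 and CREBBP (p300 and CBP), and it marks active promoters and enhancers. IMR90 and Saos-2 are both adherent mesenchymal cells, whereas H1 is pluripotent.

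The BrdU lists held 5086 regions in the H1 control, 5743 in IMR90, 6272 in Saos-2 and 1755 in the H1 knockdown, and the H3K18ac lists held 65946 in H1 and 84471 in IMR90. All regions are built from windows of 100 bp. The read depth of each library is unknown, so a missing H1 region cannot be told from one that did not reach the cut-off used by the authors. With 1 library per group there is no test between conditions. Shares are given with Wilson 95% intervals and differences between shares with Newcombe 95% intervals, which cover counting error only, and neighbouring loci are not independent.

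The members were chosen by the presence of IMR90 and Saos-2 BrdU regions and the absence of H1 control regions, so the extents, ranks and distances of these 3 lists are given as a description with no test. The members were short, with a median width of 400 bp and a range from 100 to 3100 bp. Of the 533 members, 521 held 1 region from each line, 10 held more than 1 IMR90 region and 2 held more than 1 Saos-2 region. The Saos-2 extent was the longer one at 275 members, the IMR90 extent at 159, and the lengths were equal at 99. The IMR90 extent lay wholly inside a longer Saos-2 extent at 247 members, the reverse held at 141, and the extents were identical at 58. Midpoints of the strongest region of each line lay a median of 50 bp apart and at most 750 bp. The part common to both lines was a lone window of 100 bp at 299 members (56.1%).

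Each region carries a score from the authors, whose meaning is not stated, and ranks by that score were taken list by list. Members ranked in the upper part of both lists but below the loci of all 3 lines. In IMR90 the median rank of member loci was 22.2% from the top of the list, and 502 of 533 were in the upper 50%. In Saos-2 the median rank was 38.5% from the top, and 358 were in the upper 50%. Regions at loci of all 3 lines had medians of 11.2% from the top in IMR90 and 15.8% in Saos-2, and regions found in 1 of these lines alone had medians of 65.0% and 64.6%. The member rank was the higher one in IMR90 at 388 loci and in Saos-2 at 145. Across the 533 members the ranks in the 2 lines were only weakly related (Spearman correlation 0.22), as were the lengths (0.16). Rank followed length within each line (Spearman correlation -0.89 in both).

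**Figure D1:**
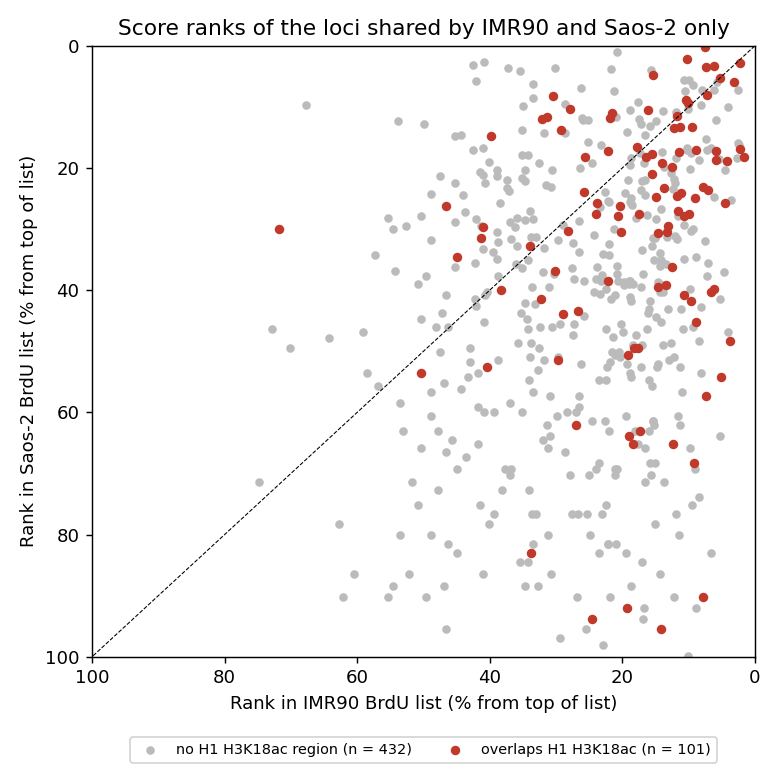
Rank of each of the 533 members in the IMR90 list (horizontal axis) and in the Saos-2 list (vertical axis), in percent from the top of the list, with strong regions at the upper right. Points lie on both sides of the diagonal with more of them below it (388 against 145), and the 101 members that overlap H1 H3K18ac (red) are most frequent toward the upper right.

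The 10 members with the smallest sum of ranks show how strong a BrdU region can be in both lines without one in the H1 control. The first lay on chromosome 7 at 932001 to 933200 (hg19), with an IMR90 region of 700 bp that ranked 128 of 5743 and a Saos-2 region of 1200 bp that ranked 177 of 6272. The nearest H1 control region was 56200 bp away. The longest member, on chromosome 5 at 648301 to 651400, held the Saos-2 region ranked 7, which ran from 648401 to 651400, and 2 IMR90 regions, the stronger of which ranked 428.5. On chromosome 2, at 26705401 to 26706200, the IMR90 region ranked 183.5 and the Saos-2 region 370.5. The H1 control list had its nearest region 264600 bp away from this locus.

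Further members of this group lay on chromosome 11 at 1691701 to 1692300 (ranks 349 in IMR90 and 202.5 in Saos-2) and on chromosome 4 at 8168001 to 8168800 (ranks 141 and 448.5). The locus on chromosome 15 at 71491701 to 71492200 ranked 304 in IMR90 and 334 in Saos-2 and lay 538300 bp from the nearest H1 control region. The locus on chromosome 1 at 53566401 to 53567500 had an H1 control region 1800 bp away and a knockdown region also 1800 bp away. Both H1 lists therefore held a region just outside this locus and none within it. Of these 10 members, 7 overlapped an H1 H3K18ac region and none overlapped an IMR90 H3K18ac region, the nearest being between 4700 and 573300 bp away.

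**Figure D2:**
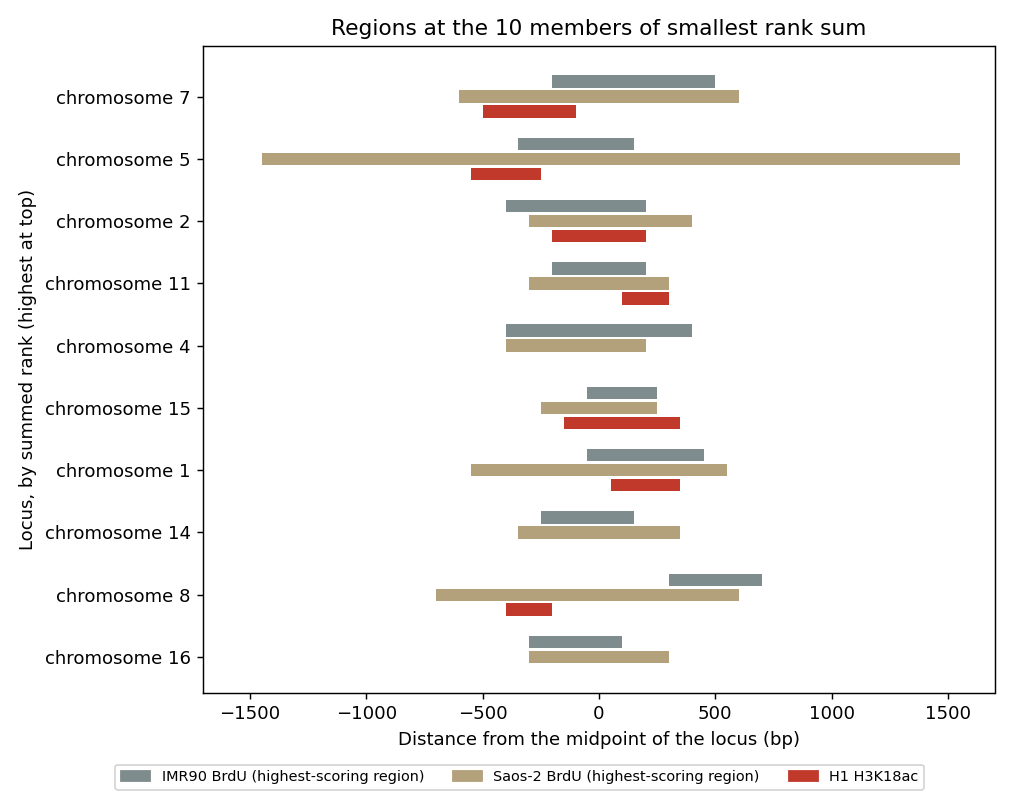
The 10 members of smallest rank sum, 1 per row, with the strongest IMR90 BrdU region (grey), the strongest Saos-2 BrdU region (sand) and any H1 H3K18ac region (red) as bars by distance from the locus midpoint in bp. The Saos-2 bar is the longer one in 9 of the 10 rows, and a red bar is present in 7.

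Other members were strong in 1 line and marginal in the other. On chromosome 5 at 1192801 to 1193300, the IMR90 region spanned 500 bp and ranked 582, while the Saos-2 region was 1 window of 100 bp that ranked 6263.5 of 6272. On chromosome 4 at 3679901 to 3680600, the IMR90 region ranked 508 and covered 700 bp, and the Saos-2 region of 100 bp ranked 5769.5. The opposite case was most marked on chromosome 3 at 197186301 to 197187000, where the Saos-2 region of 700 bp ranked 606.5 and the IMR90 region of 100 bp ranked 3885.5. In each of these loci the weaker line contributed a lone window inside the longer region of the stronger line.

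The edge of the rule on the H1 side was also described. The median distance from a member to the nearest H1 control region was 45200 bp, and 385 of 533 members (72.2%) had one within 100 kb. An H1 control region lay within 10 kb of 118 members (22.1%), within 1 kb of 55 (10.3%) and directly adjoined 23. For loci of IMR90 alone and of Saos-2 alone, the shares within 100 kb were 55.0% and 54.3%. Within 10 kb they were 13.6% and 17.1%, and within 1 kb they were 4.69% and 7.54%. The strongest of the adjoining members was on chromosome 16 at 89135301 to 89135800, with ranks of 335.5 in IMR90 and 1078 in Saos-2. Just outside the rule were the loci of all 3 lines at which the H1 part was 1 window, 159 of 926, with a median H1 rank 34.0% from the top of the list. Of the 525 loci of IMR90 and Saos-2 that ranked in the upper 10% of IMR90, 71 (13.5%) had no H1 region. This share was 39.8% between 10 and 20%, 51.9% between 20 and 40%, and 71.3% below that. Weaker loci of the 2 lines lacked an H1 region more often, and the part of the authors' threshold in this was not tested.

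The second H1 library, that of the EP300 and CREBBP knockdown, was not used to choose the members. With widths not matched, its regions lay at the members about as often as at BrdU loci in general. A knockdown region overlapped 9 of the 533 members (1.69%, 0.891 to 3.18), against 1.89% of all 13567 loci, and the difference from all other loci was -0.214 points (-1.05 to 1.29). The same list overlapped 10.9% (9.06 to 13.1) of the loci of all 3 lines, a difference of -9.22 percentage points for the members (-11.5 to -6.84). It overlapped 9.69% (7.73 to 12.1) of the loci of H1 and Saos-2. The shares were 1.21% (0.914 to 1.59) for loci of Saos-2 alone and 0.174% for loci of IMR90 alone. With widths not matched, loci of H1 with or without IMR90 were also low. The share was 2.70% for H1 and IMR90 (difference -1.01 points, -5.13 to 1.21), from 4 of 148 loci. All 4 measured 200 to 300 bp, where the members were lower. There it was 4 of 72 loci (5.56%) and 2 of 206 members (0.971%), a difference of -4.58 points (-12.5 to -0.386). The share for H1 alone was 0.569% (members higher by 1.12 points, 0.257 to 2.62), with widths not matched. At 100 bp, 0 of 33 members and 12 of 2669 loci of H1 alone had a knockdown region. At 200 to 300 bp the difference was 0.116 points (-1.38 to 2.67). At 400 to 600 bp it turned to -6.55 points (-23.5 to -0.163), from 3 of 207 members and 2 of 25 loci. Only 1 locus of H1 alone measured 700 bp or more. In loci of 700 bp or more, 4 of 87 members (4.60%) and 76 of 518 loci of all 3 lines (14.7%) had a knockdown region. Members were below loci of Saos-2 alone at 200 to 300 bp (0.971% against 1.23%) and at 400 to 600 bp (1.45% against 2.76%). At 700 bp or more it was 4.60% against 7.19%. Loci of IMR90 alone were below the members at each of these widths. For both of these classes all intervals of the difference at these widths included 0. Within 1 kb, a knockdown region was found for 12 members (2.25%), against 3.13% of all loci. The knockdown list was also the shortest of the BrdU lists.

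The 9 members with a knockdown region were few enough to be described together. The strongest lay on chromosome 11 at 64408401 to 64410100, where the locus held 3 IMR90 regions and 1 Saos-2 region of 1400 bp, with a knockdown window at 64408601 to 64408700 inside the Saos-2 region. On chromosome 22 at 43871401 to 43871900, the knockdown region of 200 bp at 43871701 to 43871900 ranked 6.10% from the top of its list. On chromosome 11 at 70548101 to 70548600, the knockdown window ran from 70548301 to 70548400. The nearest H1 control region was 29100 bp away from the first of these loci, 15800 bp from the second and 15900 bp from the third. Other members of the 9 lay closer to one. That on chromosome 8 at 134414801 to 134415800 had an H1 control region 800 bp away. That on chromosome 20 at 31896501 to 31896700 directly adjoined one. Without the members within 1 kb of an H1 control region, 7 of 478 (1.46%) had a knockdown region. None of the 9 overlapped H1 H3K18ac (0%, Wilson upper bound 29.9%), against 45 of the 257 loci of all classes with a knockdown region (17.5%, 13.4 to 22.6), so no difference could be seen with 9 loci. The nearest such region was 1200 to 19800 bp away.

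H3K18ac of H1 lay at many of the members, although H1 had no BrdU region there. Of the 533 members, 101 (18.9%, 15.8 to 22.5) overlapped an H1 H3K18ac region, against 8.33% of all 13567 loci. Loci of IMR90 alone reached 5.29% (4.64 to 6.03) and loci of Saos-2 alone 6.78% (6.04 to 7.59). Loci of H1 alone had 2.69% (2.18 to 3.31). The share was higher in loci of all 3 lines, at 30.3% (27.5 to 33.4), and in loci of H1 and Saos-2, at 23.6% (20.6 to 26.9). It was 4.73% (2.31 to 9.44) in loci of H1 and IMR90. The members thus exceeded the loci of H1 and IMR90 by 14.2 points (8.58 to 18.5), and their difference from the loci of all 3 lines was -11.4 points (-15.7 to -6.83). The difference of -4.65 points from the loci of H1 and Saos-2 had an interval from -9.14 to -0.020, and the interval included 0 under 8 of 10 alternative settings.

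Wider loci have more room for an overlap, and the median width was 400 bp in members, 700 bp in loci of all 3 lines and 100 bp in loci of 1 line. The H1 H3K18ac shares were therefore also read at like widths. At 200 to 300 bp, 26 of 206 members (12.6%) and 12 of 92 loci of all 3 lines (13.0%) overlapped the mark. At 400 to 600 bp it was 52 of 207 members (25.1%, 19.7 to 31.4) and 78 of 312 loci of all 3 lines (25%, 20.5 to 30.1). At these widths the difference was 0.12 points, with an interval from -7.31 to 7.87. At 700 bp or more the members were lower, with 22 of 87 (25.3%) against 190 of 518 (36.7%), a difference of -11.4 points (-20.4 to -0.567). Against loci of H1 and Saos-2 the difference was 0.740 points (-5.73 to 7.18) at 200 to 300 bp. It was 0.676 points (-7.02 to 8.58) at 400 to 600 bp and -13.0 points (-23.5 to -1.09) at 700 bp or more. Lengths within that open class were not matched further. Against loci of 1 line the picture depended on width. At 400 to 600 bp the members were higher than loci of IMR90 alone (5.22%, difference 19.9 points, 12.0 to 26.8) and of Saos-2 alone (13.4%, difference 11.8 points, 5.29 to 18.7). Loci of H1 alone had 16% at that width, from 4 of 25, with a difference of 9.12 points (-10.3 to 20.6). At 200 to 300 bp they had 3.21%, from 15 of 468, and the members were higher by 9.42 points (5.06 to 14.8). At 100 bp the members had 1 of 33 (3.03%), below the 4.36% of IMR90 alone and the 4.60% of Saos-2 alone, with intervals that included 0. The interval also included 0 for IMR90 alone at 200 to 300 bp (-0.708 to 9.25) and at 700 bp or more (-3.14 to 30.6), and for Saos-2 alone at 700 bp or more (-4.22 to 17.7). Loci of H1 and IMR90 had 2 of 30 (6.67%) at 400 to 600 bp.

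**Figure D3:**
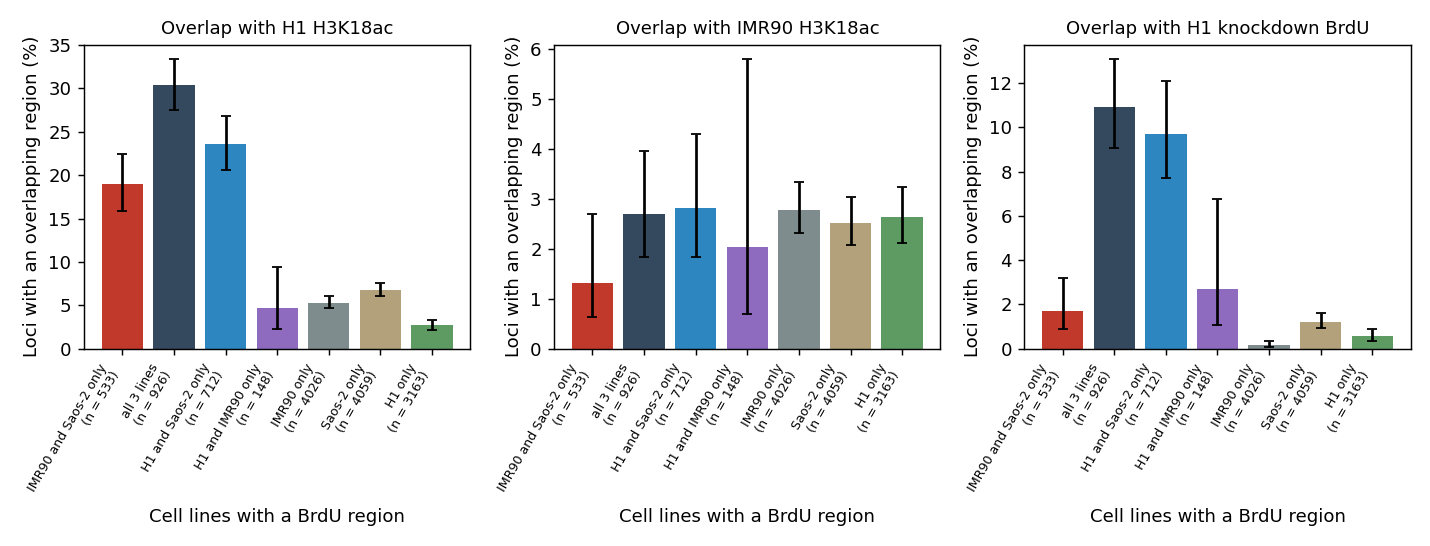
Share of loci (in percent, vertical axis) that overlap an H1 H3K18ac region (left), an IMR90 H3K18ac region (middle) or an H1 knockdown BrdU region (right), by the cell lines in which the locus has a BrdU region. Bars give the share and whiskers the Wilson 95% interval. The members (red) have 18.9% in the left panel, 1.31% in the middle and 1.69% on the right, and the vertical scales differ.

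Among the members, the mark went with the summed score rank of the BrdU regions in IMR90 and Saos-2. In the highest of 3 equal groups by summed rank, 61 of 178 members (34.3%, 27.7 to 41.5) overlapped H1 H3K18ac, against 25 of 177 in the middle group (14.1%) and 15 of 178 in the lowest (8.43%, 5.17 to 13.4). Median widths of these groups were 600, 400 and 200 bp. The groups were not matched for width, so rank and width cannot be told apart here. Within the loci the mark was densest where both lines had BrdU. It covered 124 of the 1026 windows common to IMR90 and Saos-2 (12.1%), 25 of 414 windows of IMR90 alone (6.04%) and 57 of 917 windows of Saos-2 alone (6.22%).

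The H1 H3K18ac regions at members stood at a median of 33.3% from the top of their list. They measured a median of 200 bp, against 100 bp for the whole list. Those at loci of all 3 lines, of H1 and Saos-2 and of H1 and IMR90 also measured a median of 200 bp. Their median ranks were higher, at 26.2%, 27.0% and 21.0% from the top, the last from 7 regions. Among named loci, the region at 71491801 to 71492300 on chromosome 15 stood 0.585% from the top of the H1 H3K18ac list. That at 26705601 to 26706000 on chromosome 2 stood 8.86% from the top. On chromosome 7 the mark at 932101 to 932500 began inside the Saos-2 region and reached into the IMR90 region.

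The mark was centred on the members. In the 100 bp window at the midpoint, 9.38% of members carried H1 H3K18ac, which was their highest value within 5 kb on either side. The mean was 1.82% between 4 and 5 kb from the midpoint, 5.16 times lower. The same ratio was 7.54 for loci of all 3 lines, 5.95 for loci of H1 and Saos-2 and 1.59 for loci of H1 and IMR90. It was 4.00 for loci of Saos-2 alone, 3.22 for loci of IMR90 alone and 1.67 for loci of H1 alone. Within 1 kb of the locus, 193 members (36.2%) had an H1 H3K18ac region, against 23.5% of all loci.

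H3K18ac of IMR90, a line in which all members have BrdU, lay at few loci of any class. It overlapped 7 of the 533 members (1.31%, 0.638 to 2.69), against 2.59% of all loci, although the IMR90 list covers 39.5 Mb and the H1 list 15.7 Mb. The shares were 2.70% (1.84 to 3.96) in loci of all 3 lines and 2.78% (2.32 to 3.34) in loci of IMR90 alone. The difference from the loci of all 3 lines was -1.39 points, with an interval from -2.81 to 0.236, and that from the loci of IMR90 alone was -1.47 points (-2.34 to -0.020). With 1 kb centred on each locus the first difference turned to 0.94 points (3.75% against 2.81%, interval -0.883 to 3.11), and the second was -3.70 points (-5.26 to -1.58). At the midpoint window 1.31% of members carried the mark and 1.58% did between 4 and 5 kb away, so the centre was not raised, and the highest window held 3.00% at -1200 bp from the midpoint. The median distance to the nearest IMR90 H3K18ac region was 32500 bp, against 2500 bp for H1 H3K18ac. These medians were alike in loci of all 3 lines (30800 and 2500 bp) and of H1 and Saos-2 (38450 and 2600 bp). Within 1 kb the count was 31 members (5.82%), against 8.79% of all loci.

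**Figure D4:**
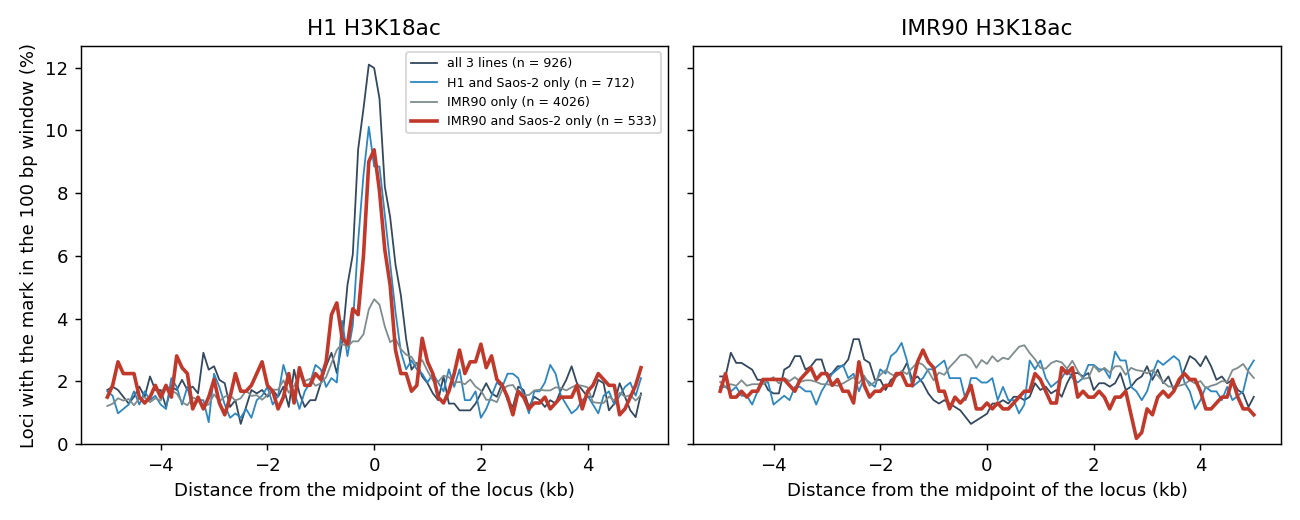
Share of loci (in percent) with H3K18ac in each 100 bp window within 5 kb of the locus midpoint, for H1 (left) and IMR90 (right), by class of locus. The members (thick red line) rise to 9.38% at the midpoint in H1 and stand at 1.31% there in IMR90.

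The mark was present in both lines at 2 members, in H1 alone at 99, in IMR90 alone at 5 and in neither at 427. Of the 7 members with IMR90 H3K18ac, 2 (28.6%) also had the H1 mark, as did 104 of the 352 loci of all classes with IMR90 H3K18ac (29.5%). The first of the 2 was on chromosome 11 at 118479601 to 118480000, inside an IMR90 H3K18ac block of 3200 bp (118478301 to 118481500) that stood 0.403% from the top of its list. The H1 mark at that locus measured 700 bp, from 118479401 to 118480100. The second was on chromosome 16 at 29320001 to 29320400, where the IMR90 mark spanned 800 bp and the H1 mark 200 bp. Members with IMR90 H3K18ac alone included chromosome 10 at 29329501 to 29329800 and chromosome 5 at 149642901 to 149643200, both with a mark of 600 bp.

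The members were frequent near chromosome ends. Of 533, 256 (48.0%, 43.8 to 52.3) lay within 5 Mb of an end, against 25.8% of all loci. The share was 36.5% (33.5 to 39.7) in loci of all 3 lines, 33.3% (29.9 to 36.8) in loci of H1 and Saos-2 and 37.2% (29.8 to 45.2) in loci of H1 and IMR90. The members exceeded the loci of all 3 lines by 11.5 points (6.27 to 16.7) and those of H1 and Saos-2 by 14.7 points (9.24 to 20.2). When regions within 10 kb were joined, the excess over the loci of all 3 lines was 4.78 points (0.166 to 9.41). Loci of H1 alone were at 13.8% (12.6 to 15.0). The rule asks for the absence of H1 regions, and the H1 control list itself held fewer regions near ends, with 22.1% of its regions there against 29.7% in IMR90 and 32.2% in Saos-2. What this adds to the members' share was not tested.

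The comparison with the loci of all 3 lines was repeated within 4 width groups and, for each line, 4 rank groups. The members were higher in 3 of the 4 width groups and in all 4 rank groups of each line, and the interval of the difference left out 0 in 3 of the 4 groups in each case. The width group that went the other way was 100 bp, with 9 of 33 members (27.3%) against 2 of 4 loci. At 400 to 600 bp, 101 of 207 members (48.8%, 42.1 to 55.6) and 106 of 312 loci of all 3 lines (34.0%, 28.9 to 39.4) lay near an end. At 700 bp or more it was 54 of 87 members (62.1%, 51.6 to 71.5) and 205 of 518 (39.6%, 35.5 to 43.8). Among loci in the upper 10% of the Saos-2 list, 27 of 39 members (69.2%, 53.6 to 81.4) and 135 of 340 loci of all 3 lines (39.7%, 34.6 to 45.0) were near an end. That was the widest gap of the 8 rank groups. The interval included 0 in the lowest IMR90 group, beyond 40% from the top (45.4% against 41.0%, difference -13.9 to 21.4 points), and between 20 and 40% in Saos-2 (47.7% against 39.3%, difference -1.49 to 18.2 points). Within 1 Mb of an end were 68 members (12.8%, 10.2 to 15.9), against 7.45% (5.93 to 9.32) of the loci of all 3 lines and 2.31% of the loci of H1 alone. Loci of H1 and IMR90 had 10.1% (6.24 to 16.0) there. Between 1 and 2 Mb they had 14.9% against 13.7% of members, and between 2 and 5 Mb 12.2% against 21.6%. By width, 8 of 25 of them (32%) were within 5 Mb at 100 bp and 24 of 72 (33.3%) at 200 to 300 bp. At 400 to 600 bp it was 15 of 30 (50%), and at 700 bp or more 8 of 21 (38.1%).

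**Figure D5:**
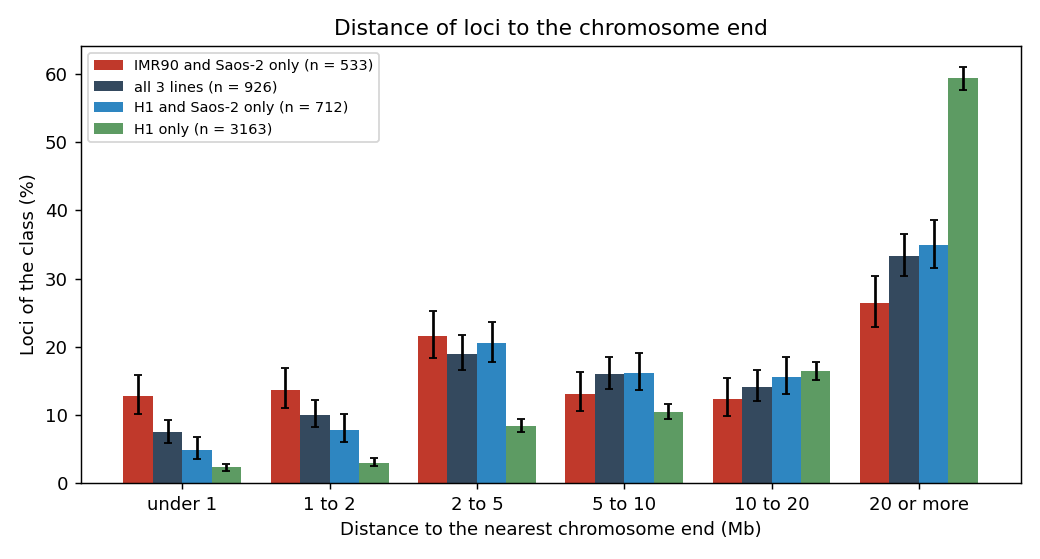
Share of loci of each class (in percent, with Wilson 95% intervals) by distance of the locus midpoint to the nearest chromosome end in Mb. Among the classes shown, the members (red) are highest below 1 Mb, at 12.8%, and lowest at 20 Mb or more, at 26.5%. Of the loci of H1 alone, 59.3% fall in that last group. Loci of H1 and IMR90 are not shown.

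The end-proximal members were spread over many chromosome arms. Of 39 autosomal arm ends with regions, 33 held at least 1 member and 11 held 10 or more. The long-arm end of chromosome 17 held 21 members, that of chromosome 16 held 17 and that of chromosome 14 held 16. On the short arms, the ends of chromosomes 1 and 11 held 11 members each. H1 H3K18ac was as frequent near ends as elsewhere, with 49 of 256 members (19.1%) and 52 of 277 (18.8%). For IMR90 H3K18ac the counts were 1 of 256 and 6 of 277, and 7.11% of all IMR90 H3K18ac regions lay near an end against 19.2% of those of H1.

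Per Mb, members were densest on chromosomes 22 (0.606), 19 (0.575) and 17 (0.407) and sparsest on chromosomes 13 (0.0695) and 6 (0.0702). Much of that order was shared by all BrdU loci, since chromosome 19 also held 15.5 loci per Mb and chromosome 13 held 3.18. As a share of the loci on the same chromosome, members made up 6.80% on chromosome 22 (4.83 to 9.49) and 5.87% on chromosome 16 (4.27 to 8.02), against 4.02% over all autosomes. The share was 2.03% on chromosome 6 (1.17 to 3.52) and 2.79% on chromosome 2 (1.91 to 4.06). On chromosome 19 it was 3.71%, close to the autosomal value.

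Members also lay in groups. With a limit of 100 kb between neighbours, 168 of 533 (31.5%, 27.7 to 35.6) fell into 69 clusters, against 34.1% (31.1 to 37.2) of the loci of all 3 lines and 25.6% (22.5 to 28.9) of the loci of H1 and Saos-2. These classes differ in number of loci and in closeness to chromosome ends, and neither was matched. The largest cluster held 7 members over 181.6 kb on chromosome 14, at 106051601 to 106233200, among 25 BrdU loci in all. Its members ranked from 10.6 to 49.6% from the top in IMR90, and none overlapped H3K18ac in either line. A cluster on chromosome 7, at 157337501 to 157373800, held 5 members within 36.3 kb and no other BrdU locus. A cluster of 5 on chromosome 4 spanned 54.5 kb at 3626101 to 3680600, with 2 members on H1 H3K18ac. The last 2 spans held no locus of all 3 lines and none of H1 and Saos-2 only, and all 3 clusters were within 5 Mb of a chromosome end.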

How the data were processed

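The deposited data are 6 region lists in hg19, 1 per pulled-down library. The 6 input samples have no list here and were not analysed. Per the submitters' processing notes, Bowtie 0.12.7 was used. How regions were called and at which cut-off is not stated in the sources used here, nor is it stated whether duplicate reads were removed or inputs subtracted. The authors' deposited score is a whole number per region of unstated meaning, so it served only to rank regions within a list (ties share the mean rank). No counts or depths are given, and the depth is unknown.

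Overlaps were computed in Python 3.11.15 with numpy 2.4.6 and pandas 2.3.3, and correlations with scipy 1.17.1. The code was tested on simulated lists. A mark counted as present when at least 1 bp overlapped. The end of a chromosome was taken as the highest coordinate in any list, and the short-arm end as coordinate 1, except that chromosomes 13, 14, 15, 21 and 22 were given no short-arm end. Where members are named, these are the 10 of smallest rank sum, the 5 with the largest rank difference in each direction, the 5 of smallest rank sum with each mark, with both marks and with a knockdown region, and the 3 largest clusters. The text gives part of each set. The adjoining members were named after their values were seen. The members, groups and lists were chosen with earlier results of these data known. The reference tables used here are on another genome build, so genes and sequences of the loci are not reported, and neither the planned gene lists nor the planned GC content were run.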

Additional observations from a re-analysis of the deposited data

How the results depend on the processing

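Of 83 alternative values, 67 stayed within the interval of the reported value (or, for the number of loci, within 1.5 times) and 16 moved. A reversal was possible only for the differences between classes, and none of those reversed. The difference in IMR90 H3K18ac from the loci of all 3 lines is not among the 83 values. It changed sign with 1 kb centred on each locus (0.94 points, -0.883 to 3.11). The cause of each move was not tested beyond what the setting itself does. The upper 50% of each BrdU list by score left 350 member loci and gave 23.7% with H1 H3K18ac. Merging within 10 kb gave 30.1% with H1 H3K18ac, 6.63% with IMR90 H3K18ac, 41.4% near a chromosome end, and an excess of 4.78 points (0.166 to 9.41) over the loci of all 3 lines in that last share. With 1 kb centred on each locus the shares were 26.3% for H1 H3K18ac and 3.75% for IMR90 H3K18ac, and the members were below the loci of all 3 lines by -5.27 points in H1 H3K18ac. A mark within 1 kb gave 36.2%, 5.82% and a difference of -3.96 points (-9.06 to 1.24). The upper 50% of the H1 H3K18ac list gave 13.7%. Limits of 2 and 10 Mb from an end gave 26.5% and 61.2%, and 1 member per cluster gave 42.9% within 5 Mb. The knockdown share moved under none of its 10 alternatives. Keeping 1 locus per cluster, leaving out members within 1 kb of an H1 region, and the differences between classes were added after seeing the data. No paired analysis was possible because each group has 1 library. Without depths or replicates, a missing region cannot be told from one under the threshold.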

Other observations

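Some other classes of BrdU locus lay close to the members. A locus of all 3 lines lay within 10 kb of 48 of 533 members (9.01%, 6.86 to 11.7) and of 32 of 712 loci of H1 and Saos-2 (4.49%, 3.20 to 6.28). A locus of IMR90 alone lay within 10 kb of 119 members (22.3%, 19.0 to 26.1), against 15.7% (13.5 to 18.1) of the loci of all 3 lines. For loci of Saos-2 alone these shares were 18.6% (15.5 to 22.1) and 13.4% (11.3 to 15.7), and 17% (14.4 to 19.9) for the loci of H1 and Saos-2. Other neighbours were no more frequent at members. A locus of H1 alone lay within 10 kb of 11.3% (8.85 to 14.2) of members and 9.61% (7.88 to 11.7) of loci of all 3 lines. For the loci of H1 and Saos-2 it was 11.2%. A locus of H1 and Saos-2 lay within 10 kb of 2.81% (1.71 to 4.59) of members and 3.78% (2.73 to 5.21) of loci of all 3 lines. Pairs that just missed the rule were also present: 112 of the 4026 loci of IMR90 alone directly adjoined a locus of Saos-2 alone without sharing a base, and 195 had one within 500 bp. A tight group of 3 members lay within 1.9 kb on chromosome 22 at 19712701 to 19714600, with 2 of them on H1 H3K18ac, and was chosen after its values were seen.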
